A study of Mus musculus with 10 samples.

Results

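The 37 genes carried by mouse mitochondrial DNA were examined in whole tumors of Panc02, a pancreatic cancer cell line of the mouse. Members were taken as every gene of the count matrix whose symbol starts with mt-, which gave 37 of 37417 genes: 13 mRNA genes, 2 rRNA genes and 22 tRNA genes. Both groups carried doxycycline-inducible Cas9. In the sgCda group the cells had a guide RNA against Cda, the gene of cytidine deaminase, which converts cytidine to uridine, and in the sgNT group a nontargeting guide. Cells were injected under the skin of C57BL/6J mice and tumors were taken on day 16, with 5 tumors per group. The labels give an age of 12 weeks and a wild-type genotype for both groups. The comparison asks what loss of Cda in the cancer cells did to the tumor, here read through the mitochondrial transcripts. A whole tumor also holds host cells, so fewer cells of a type and less RNA per cell cannot be told apart.

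Mitochondrial DNA encodes 13 subunits of the respiratory chain, and the 2 rRNAs and 22 tRNAs needed to translate them inside the organelle. All other proteins of mitochondria come from nuclear genes. Each DNA strand is transcribed as a long precursor by a dedicated RNA polymerase, tRNAs punctuate the precursor, and RNases that cut at the tRNA ends release the mRNAs and rRNAs. Most genes lie on one strand. In the GENCODE annotation of GRCm38 these are on the plus strand, and mt-Nd6 and 8 tRNA genes are on the minus strand.

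Libraries were made from poly(A)-selected RNA with a stranded kit and read over 50 bases. Between 28051907 and 39484964 counts were assigned to genes per tumor. Levels are given in CPM, the count relative to the total of a tumor after that total was scaled by TMM (a trimmed mean of M values), and between genes as CPM per kilobase (kb) of annotated gene. Cda itself had 10.1 to 14.7 CPM in the sgNT group and 7.47 to 12.5 CPM in the sgCda group, so the groups overlapped (log2 fold change −0.30, SE 0.17, edgeR quasi-likelihood test, Benjamini-Hochberg adjusted p = 0.9996). Counts over a whole gene do not show whether the guide cut it. One tumor, sgCda replicate 4, stood apart. It had the fewest assigned counts and the most reads that the counting placed in no annotated feature. These were 18.4% of uniquely aligned reads, against 10.3% to 14.9% in the other tumors. The counting mode is not given, so these reads need not lie outside genes. The tumor also had the most reads aligned to several places per assigned count (0.789, against 0.684 to 0.754). Log2 fold changes of the tested members are therefore given with and without it.

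The mitochondrial transcripts were first described by class. In sgNT tumors mRNAs of complex IV (cytochrome c oxidase) took 1.66% ± 0.073 of assigned counts (SD, n = 5), those of complex I (NADH dehydrogenase) 1.22% ± 0.016, and mt-Cytb, the single mitochondrial gene of complex III, 0.353% ± 0.010. The mRNAs of complex V (ATP synthase) took 0.0580% ± 0.0032, the rRNAs 0.248% ± 0.011 and the tRNAs 0.0244% ± 0.0030. The complex I share kept within 1.20% to 1.24% over the 5 sgNT tumors and within 1.16% to 1.29% over 4 of the sgCda tumors, and was 2.18% in sgCda replicate 4. For complex IV the ranges were 1.59% to 1.76% in sgNT and 1.63% to 1.78% in the same 4 sgCda tumors, with 2.49% in sgCda replicate 4. Thus the respiratory chain shares of 9 tumors lay close together and 1 tumor lay above them.

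**Figure D1:**
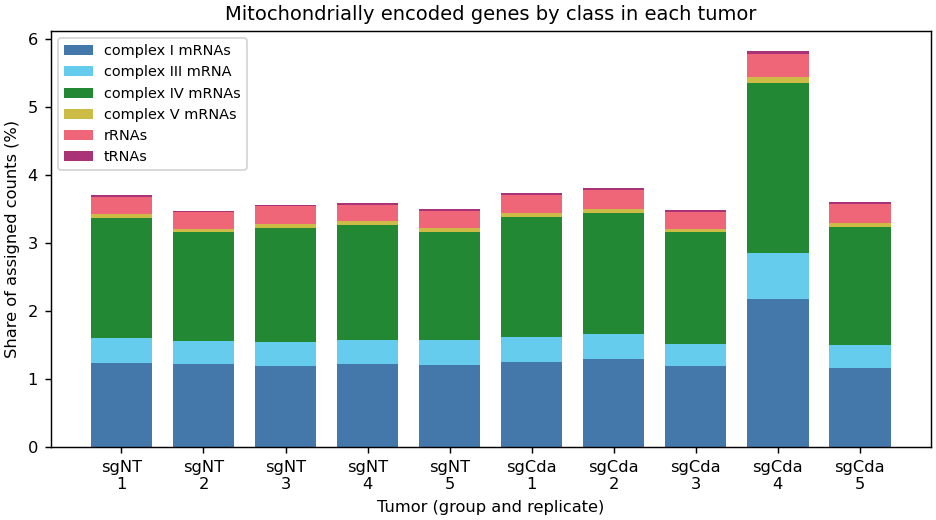
Each bar is 1 tumor, its height the percentage of assigned counts in mitochondrially encoded genes, and the colors divide it by class. Complex IV and complex I mRNAs make up most of every bar, and the bar of sgCda replicate 4 is the tallest, mainly through the mRNA classes.

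Compared with the sgNT group, none of the 25 members that passed the filter on low counts was called at an adjusted p under 0.05 by edgeR. Each had an adjusted p of 0.9996, and 0.00% of the 15299 genes tested were called. At an unadjusted p under 0.05, 4 of the 25 were higher in sgCda tumors and 0 were lower, where 1.54% of all genes tested were higher and 0.954% lower (2.50% in either direction). All 4 were tRNA genes of the minus strand: mt-Te, mt-Ts1, mt-Tc and mt-Ty. Log2 fold changes were above 0 for 23 of the 25, against 52.9% of all genes tested, with a median of 0.22, against 0.0078 over all genes. Without sgCda replicate 4 they were above 0 for 17 of the 25 and the median was 0.076. Members share precursors and libraries, so they are not independent of each other. The number at an unadjusted p under 0.05 was 2 without sgNT replicate 1.

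**Figure D2:**
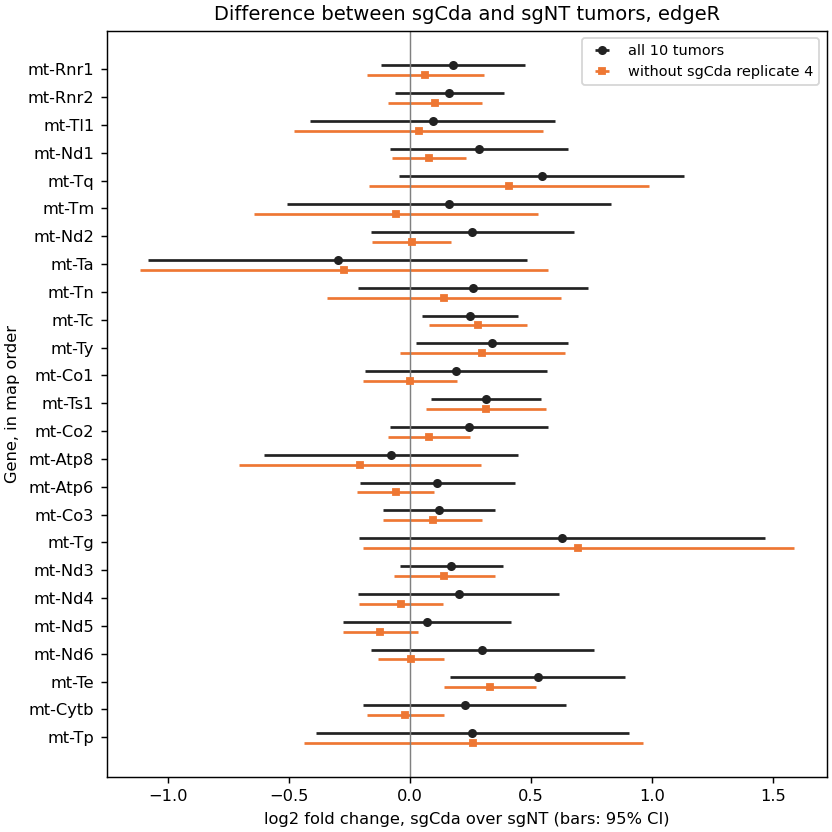
Log2 fold changes of sgCda over sgNT tumors with 95% confidence intervals for the 25 tested genes, in map order, from all 10 tumors (circles) and without sgCda replicate 4 (squares). Most mRNA estimates move toward 0 without that tumor, while those of mt-Tc and mt-Ts1 stay near 0.3.

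Among complex I subunits, mt-Nd1 had 3202, 2989, 3001, 3188 and 3051 CPM in sgNT tumors 1 to 5 and 3301, 3356, 3259, 5760 and 3106 CPM in sgCda tumors 1 to 5. The groups overlapped, and the log2 fold change of 0.28 (SE 0.17) became 0.078 without sgCda replicate 4. mt-Nd2 had 1341, 1386, 1453, 1404 and 1417 CPM in the sgNT group and 1397, 1578, 1373, 2741 and 1272 CPM in the sgCda group. Here too only the fourth sgCda tumor lay far from the sgNT range, and the log2 fold change went from 0.26 (SE 0.19) to 0.0058 without it. mt-Nd4 had 3694, 3684, 3552, 3550 and 3401 CPM in the sgNT group and 3598, 3798, 3253, 6613 and 3273 CPM in the sgCda group. mt-Nd5, the longest mitochondrial mRNA gene, had 2099, 2213, 2213, 2184 and 2008 CPM in the sgNT group and 2086, 2006, 1927, 3364 and 1850 CPM in the sgCda group. For mt-Nd5 the other 4 sgCda tumors lay below the sgNT mean, and the log2 fold change went from 0.068 (SE 0.16) to −0.12 without the fourth; for mt-Nd4 it went from 0.20 (SE 0.19) to −0.038.

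mt-Nd3 behaved differently from these genes. It had 1188, 1023, 1260, 1224 and 1382 CPM in the sgNT group and 1309, 1433, 1199, 1483 and 1415 CPM in the sgCda group, so that sgCda replicate 4 was the highest but close to its neighbours (log2 fold change 0.17, SE 0.097, and 0.14 without it). mt-Nd6, the complex I subunit encoded on the minus strand, had 766, 805, 819, 795 and 745 CPM in the sgNT group and 820, 832, 733, 1679 and 768 CPM in the sgCda group. It showed the largest rise in sgCda replicate 4 over the other sgCda tumors among the mRNAs (1.09 on the log2 scale), and its log2 fold change of 0.30 (SE 0.21) became 0.0045 without that tumor. mt-Nd4l is described below.

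mt-Cytb, the electron-carrying core of complex III, had 3635, 3431, 3508, 3597 and 3546 CPM in the sgNT group and 3606, 3687, 3237, 6733 and 3439 CPM in the sgCda group. Its log2 fold change was 0.22 (SE 0.19) with sgCda replicate 4 and −0.020 without it.

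Of the complex IV subunits, mt-Co1, which holds the catalytic site, had 7799, 7269, 7800, 7568 and 6667 CPM in the sgNT group and 7560, 7783, 7049, 12678 and 7239 CPM in the sgCda group. mt-Co2, which takes electrons from cytochrome c, had 2251, 2142, 2386, 2543 and 2146 CPM in the sgNT group and 2356, 2390, 2520, 3909 and 2397 CPM in the sgCda group. For each of these genes the groups overlapped and sgCda replicate 4 was the highest, and the log2 fold changes were 0.19 (SE 0.17) for mt-Co1 and 0.24 (SE 0.15) for mt-Co2. Without that tumor they were −0.0016 and 0.076. mt-Co3 had 7397, 6402, 7070, 7064 and 6916 CPM in the sgNT group and 7629, 7780, 6500, 8152 and 7812 CPM in the sgCda group. Like mt-Nd3, its neighbour on the plus strand across the gene mt-Tg, it was only slightly higher in sgCda replicate 4 than in other tumors (log2 fold change 0.12, SE 0.11, and 0.093 without it).

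Both ATP synthase subunits are read from overlapping frames of 1 message. The annotated genes share 43 bases, printed in capitals below with the bases around them (plus strand, GRCm38, chrM:7912-7984, exonic), because a read that lies partly in them can touch both genes.
mt-Atp8/mt-Atp6: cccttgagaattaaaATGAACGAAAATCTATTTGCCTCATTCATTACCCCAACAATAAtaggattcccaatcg
mt-Atp6 had 602, 547, 573, 567 and 615 CPM in the sgNT group and 589, 535, 498, 911 and 605 CPM in the sgCda group. mt-Atp8 had only 26, 31, 34, 34 and 29 counts in sgNT and 35, 36, 22, 34 and 20 counts in sgCda tumors. Per kb of gene this was 4.49 CPM for mt-Atp8 against 887 CPM for mt-Atp6, although 113 placements of a 50-base window touch mt-Atp8 and no other mitochondrial gene. The log2 fold changes were −0.080 (SE 0.24) for mt-Atp8 and 0.11 (SE 0.15) for mt-Atp6, and −0.21 and −0.060 without sgCda replicate 4. The reason for the low mt-Atp8 count was not tested.

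The rRNAs of the mitochondrial ribosome were counted as well, although the libraries were poly(A)-selected. mt-Rnr1, of the small subunit, had 571, 616, 805, 685 and 570.0 CPM in the sgNT group and 640.1, 733, 698, 961 and 638 CPM in the sgCda group. mt-Rnr2, of the large subunit, had 1940, 1730, 1878, 1732 and 1936 CPM in the sgNT group and 1918, 2161, 1710, 2403 and 2120 CPM in the sgCda group. The groups overlapped for both, with log2 fold changes of 0.18 (SE 0.14) and 0.16 (SE 0.10), or 0.062 and 0.10 without sgCda replicate 4. The ratio of mt-Rnr2 to mt-Rnr1 per kb ranged over 1.41 to 2.05 in sgNT and 1.48 to 2.01 in sgCda tumors.

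Per kb the order over all 10 tumors was led by mt-Co3 (9276 CPM per kb), followed by mt-Co1 (5140), mt-Nd3 (3711), mt-Co2 (3661), mt-Nd1 (3575), mt-Cytb (3358) and mt-Nd4 (2788). mt-Nd3, mt-Co2 and mt-Nd1 are close in this order: in sgNT tumors their levels per kb were 3492 ± 373, 3353 ± 250 and 3225 ± 107 CPM (SD, n = 5), so these neighbours did not differ beyond their spread. Lower mRNAs were mt-Nd6 (1688), mt-Nd2 (1480), mt-Nd5 (1203) and mt-Atp6 (887), and the rRNAs had 1234 (mt-Rnr2) and 724 (mt-Rnr1). The strand setting of the counting is not given, so the mt-Nd6 value may include reads of the plus-strand precursor opposite it. mt-Atp8 and mt-Nd4l lay far below all other mRNAs.

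**Figure D3:**
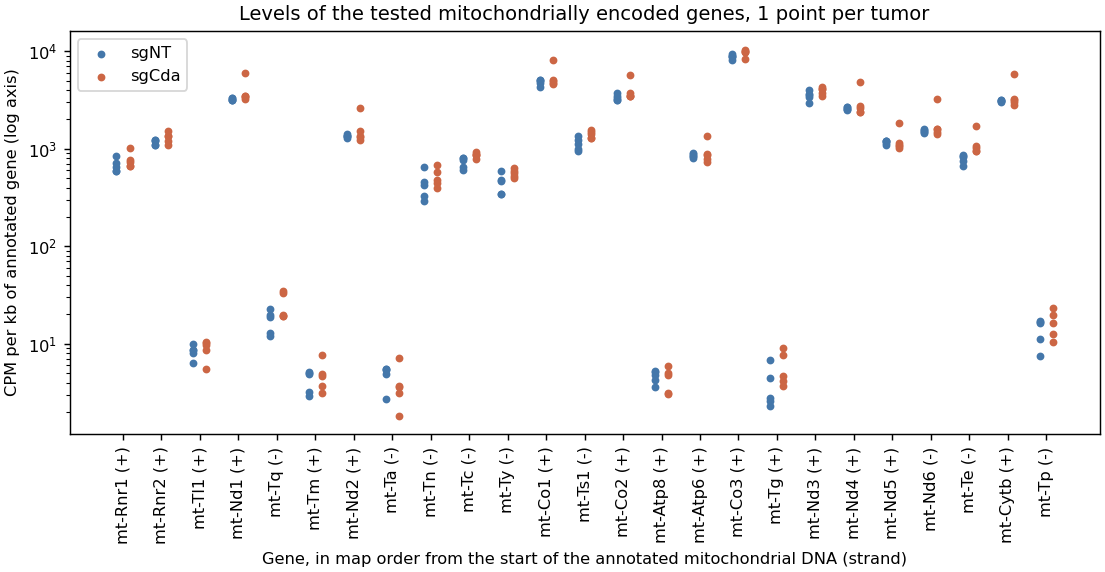
CPM per kb of annotated gene on a log axis for the 25 tested genes in map order, 1 point per tumor, with the strand in parentheses. mt-Co3 is the highest, 5 minus-strand tRNAs lie far above the other tRNAs, and mt-Atp8 lies with these rarely counted tRNAs.

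The share of reads that could be placed uniquely differs between these genes, because stretches of mitochondrial DNA have been copied into nuclear chromosomes. Of all 50-base windows of the gene, 100% in mt-Co2, 99.9% in mt-Co3, 99.5% in mt-Atp6, 98.8% in mt-Nd4l and 98.0% in mt-Nd3 also occur, letter for letter, in another annotated transcript. The shares were 62.2% in mt-Nd4, 51.1% in mt-Co1, 8.19% in mt-Nd2, 7.61% in mt-Nd5 and 1.04% in mt-Rnr2. In the remaining members 0 windows occurred in another annotated transcript. The copies of mt-Co2, mt-Atp6, mt-Co3, mt-Nd3, mt-Nd4l and mt-Nd4 that share most windows, and one of mt-Co1, lie side by side as pseudogenes on the minus strand of chromosome 1 (24611535 to 24616197). The bases between these pseudogenes were not searched. On the mitochondrial map mt-Ts1 and mt-Atp8 lie mostly between genes with such a copy. Their 0 therefore does not show that they lack a nuclear copy. Nearly all windows of mt-Co2, mt-Co3 and mt-Nd4l have a copy. mt-Co2 and mt-Co3 were among the highest genes, and mt-Nd4l was at 1 count in 1 tumor of each group and at 0 in the other 8. The chromosome 1 copies of mt-Co2 (Gm28661) and mt-Co3 (Gm28437) were not in the count matrix, while that of mt-Nd4l (Gm10222) was. The part of this in the counts was not tested. A count of 0 allows up to 0.0753 to 0.106 CPM here, depending on the depth of the tumor (3 counts, counting error only).

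mt-Nd4l encodes a small complex I subunit and shares 7 bases with mt-Nd4. It is printed whole beside its copy Gm10222, an unprocessed pseudogene (chr1:24612407-24612700, minus strand), since both genes were listed in the matrix and both were near 0. The capitals mark the bases of mt-Nd4l (chrM:9877-10173, plus strand) with no counterpart in Gm10222.
mt-Nd4l: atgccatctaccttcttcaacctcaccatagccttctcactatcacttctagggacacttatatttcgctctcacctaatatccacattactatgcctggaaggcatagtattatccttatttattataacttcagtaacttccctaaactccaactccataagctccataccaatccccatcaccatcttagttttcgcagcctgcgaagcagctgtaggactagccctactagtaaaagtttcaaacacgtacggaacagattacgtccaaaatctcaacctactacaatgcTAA
Gm10222: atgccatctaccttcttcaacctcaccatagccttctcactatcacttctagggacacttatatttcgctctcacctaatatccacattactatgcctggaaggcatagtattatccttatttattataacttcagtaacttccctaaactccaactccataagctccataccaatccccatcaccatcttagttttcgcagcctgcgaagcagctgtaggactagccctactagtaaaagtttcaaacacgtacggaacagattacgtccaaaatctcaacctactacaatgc
The 294 aligned bases are identical, with 0 mismatches. Gm10222, which was chosen for display after its values were seen, had 0 to 2 counts per tumor and 7 in all. Of the copies with the most counts, Gm13340, a copy of mt-Co1, had 60 to 99 counts per tumor, Gm13341, a copy of mt-Co2, 33 to 90, and Gm11407, a copy of mt-Nd5, 12 to 46. Gm13339, a copy of mt-Nd2, had 0 to 6 and Gm11512, a copy of mt-Co1, 0 to 5. These are small beside the 2605103 counts of mt-Co1 and the 823241 of mt-Co2 over all tumors, but only copies in the count matrix have a count. The copies that share most windows with mt-Co1 (Gm29216, 28.7%) and mt-Co2 (Gm28661, 99.5%) were not in it. How reads with more than 1 placement were spread was not tested.

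Mature mitochondrial tRNAs carry no poly(A) tail, and most tRNA genes were close to 0. The 14 tRNA genes of the plus strand together had 39 to 74 counts per tumor and the 8 of the minus strand 6363 to 11291. The minus-strand genes held 99.4% of all tRNA counts, and 98.4% fell on 5 of them: mt-Tn, mt-Tc and mt-Ty, which are neighbours on the map, mt-Ts1, which meets the end of mt-Co1 from the opposite strand, with an overlap of 3 bases, and mt-Te, which lies between mt-Nd6 and mt-Cytb. Their sequences are printed from the annotated transcripts (GRCm38, minus strand), with the anticodon in capitals, because the 4 tRNA genes with the smallest unadjusted p are among them. The positions are chrM:5089-5159 for mt-Tn (asparagine), chrM:5192-5257 for mt-Tc (cysteine), chrM:5260-5326 for mt-Ty (tyrosine), chrM:6870-6938 for mt-Ts1 (serine) and chrM:14071-14139 for mt-Te (glutamate).
mt-Tn: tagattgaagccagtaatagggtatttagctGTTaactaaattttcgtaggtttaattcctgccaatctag
mt-Tc: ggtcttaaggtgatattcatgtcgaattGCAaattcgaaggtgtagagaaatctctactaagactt
mt-Ty: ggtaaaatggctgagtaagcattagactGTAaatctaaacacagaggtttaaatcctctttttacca
mt-Ts1: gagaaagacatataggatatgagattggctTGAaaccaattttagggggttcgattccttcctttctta
mt-Te: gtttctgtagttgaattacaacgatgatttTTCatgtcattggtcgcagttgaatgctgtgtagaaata
These genes are barely longer than a read, so the neighbours decide how many placements of a 50-base window touch only 1 gene. With strand taken into account these were 51 to 120 for the minus-strand and 9 to 71 for the plus-strand tRNA genes, and without strand 20 to 67 and 9 to 26. Within the minus strand, with strand taken into account, mt-Tq, with 120, had 500 counts over all tumors and mt-Tc, with 51, had 17523. Without strand mt-Tq had 21 placements and mt-Tc 51. On that measure mt-Tp, with 67, had 340 counts and mt-Ts1, with 20, had 29012. The part of the placements in the counts was not tested. The strand setting of the counting is not given in the sources used here. Reads of a minus-strand gene and of the plus-strand precursor opposite it can therefore not be told apart.

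mt-Te had 45.4, 51.7, 57.8, 60.04 and 57.2 CPM in the sgNT group and 65.3, 69.9, 64.8, 119 and 73.2 CPM in the sgCda group. All 5 sgCda tumors lay above all 5 sgNT tumors. mt-Te was the only tested member without overlap, where, of all genes tested, 0.307% lay higher and 0.294% lower in sgCda tumors without overlap. Its log2 fold change was 0.53 (SE 0.16, edgeR unadjusted p = 0.00849, adjusted p = 0.9996), and without sgCda replicate 4 it was 0.33 (SE 0.085, unadjusted p = 0.00329, adjusted p = 0.9996).

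mt-Ts1 had 77.7, 65.1, 85.5, 92.9 and 68.5 CPM in the sgNT group and 88.2, 107, 103, 96.9 and 88.9 CPM in the sgCda group. Only sgNT replicate 4 reached into the sgCda range (log2 fold change 0.31, SE 0.10, edgeR unadjusted p = 0.0115). mt-Tc had 42.9, 40.2, 53.0, 50.7 and 53.2 CPM in the sgNT group and 58.3, 56.5, 60.9, 51.9 and 57.2 CPM in the sgCda group. Here sgCda replicate 4 was the lowest of its group and the only one within the sgNT range (log2 fold change 0.25, SE 0.090, edgeR unadjusted p = 0.0185). Neither estimate rested on that tumor: without it they were 0.31 and 0.28. mt-Ty had 22.9, 23.2, 31.1, 32.0 and 39.7 CPM in the sgNT group and 33.8, 35.5, 39.4, 42.0 and 37.8 CPM in the sgCda group (log2 fold change 0.34, SE 0.14, edgeR unadjusted p = 0.0378, adjusted p = 0.9996). Without sgCda replicate 4 the log2 fold change of mt-Ty was 0.30 and the unadjusted p of edgeR was 0.0795, with an adjusted p of 0.9996. mt-Tn had 23.4, 20.6, 32.4, 29.8 and 46.5 CPM in the sgNT group and 28.2, 34.2, 40.6, 48.5 and 31.7 CPM in the sgCda group (log2 fold change 0.26, SE 0.22, and 0.14 without sgCda replicate 4). For mt-Ty the groups overlapped only through sgNT replicate 5, and for mt-Tn through sgNT replicates 3, 4 and 5.

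As a share of assigned counts the summed tRNAs did not overlap between the groups, with 0.0205% to 0.0272% in sgNT and 0.0280% to 0.0367% in sgCda tumors, or 0.0280% to 0.0319% without sgCda replicate 4. As a share of mitochondrial counts they overlapped, with 0.589% to 0.777% in sgNT and 0.630% to 0.916% in sgCda tumors, or 0.751% to 0.916% without that tumor. Since 98.4% of tRNA counts over all tumors fell on the 5 genes above, the sum largely restates their values. The only minus-strand mRNA, mt-Nd6, was set against mt-Nd5, which lies opposite and overlaps it by 14 bases. The ratio of their counts per kb was 1.28, 1.28, 1.30, 1.28 and 1.30 in sgNT and 1.38, 1.46, 1.34, 1.75 and 1.46 in sgCda tumors. Every sgCda tumor was above every sgNT tumor, with means of 1.29 ± 0.012 and 1.48 ± 0.16 (SD, n = 5 each), or 1.41 ± 0.060 without sgCda replicate 4. Without that tumor the log2 fold change was 0.0045 for mt-Nd6 and −0.12 for mt-Nd5. Because the strand setting is not given, reads of mt-Nd6 cannot be told apart from those of the plus-strand precursor opposite it. The ratios of mt-Rnr2 to mt-Rnr1, mt-Co3 to mt-Co1 and mt-Nd3 to mt-Nd4 overlapped between the groups. How often shares or ratios of other genes separate the groups was not counted. No test was made of these shares or ratios.

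**Figure D4:**
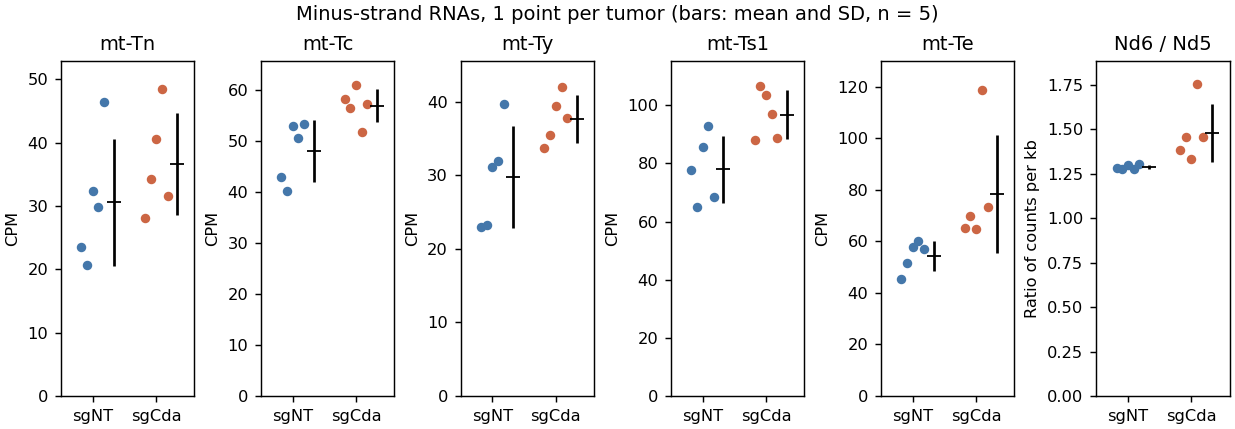
CPM of the 5 tRNA genes of the minus strand that had most tRNA counts, and the ratio of mt-Nd6 to mt-Nd5 counts per kb, with 1 point per tumor, and the mean and SD of each group of 5 as a bar. The groups are separate for mt-Te and for the ratio and overlap for the other tRNAs.

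Among the remaining tested tRNA genes, mt-Tq (glutamine), mt-Tp (proline), mt-Ta (alanine), mt-Tl1 (leucine), mt-Tm (methionine) and mt-Tg (glycine) had 100 to 500 counts over all tumors. Their log2 fold changes ranged from −0.30 (mt-Ta, SE 0.36) to 0.63 (mt-Tg, SE 0.38), and without sgCda replicate 4 from −0.27 to 0.69. Without that tumor mt-Tm went from 0.16 to −0.059, mt-Tl1 from 0.092 to 0.035 and mt-Tp from 0.256 to 0.260. The smallest unadjusted p was that of mt-Tq, 0.0668 by edgeR, with a log2 fold change of 0.54 (SE 0.27), and 0.41 without sgCda replicate 4. The other 12 members were not tested. These were mt-Nd4l and 11 plus-strand tRNA genes, and each had 0 to 10 counts in every tumor, so a difference was not detectable at this depth.

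Within sgCda replicate 4 the members were not raised alike. It was the highest of the 10 tumors for 14 of the 14 tested mRNAs and rRNAs and for 6 of the 11 tested tRNAs. Relative to the mean of all 10 tumors, on the log2 scale, mt-Nd6 was 0.99 higher there, mt-Te 0.89, mt-Nd2 0.87, mt-Cytb 0.84, mt-Nd4 0.82 and mt-Nd1 0.78. mt-Rnr1 was 0.49 higher, mt-Rnr2 0.31, mt-Nd3 0.21, mt-Co3 0.17 and mt-Ts1 0.17, and mt-Tc was −0.0060. In this tumor the ratio of mt-Co3 to mt-Co1 counts per kb was 1.27, against 1.74 to 2.13 in the other 9, and that of mt-Nd3 to mt-Nd4 was 0.888, against 1.10 to 1.71. The rRNAs made up 5.82% of mitochondrial counts, the lowest share of the 10 tumors. The part of library quality in these values was not tested.

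**Figure D5:**
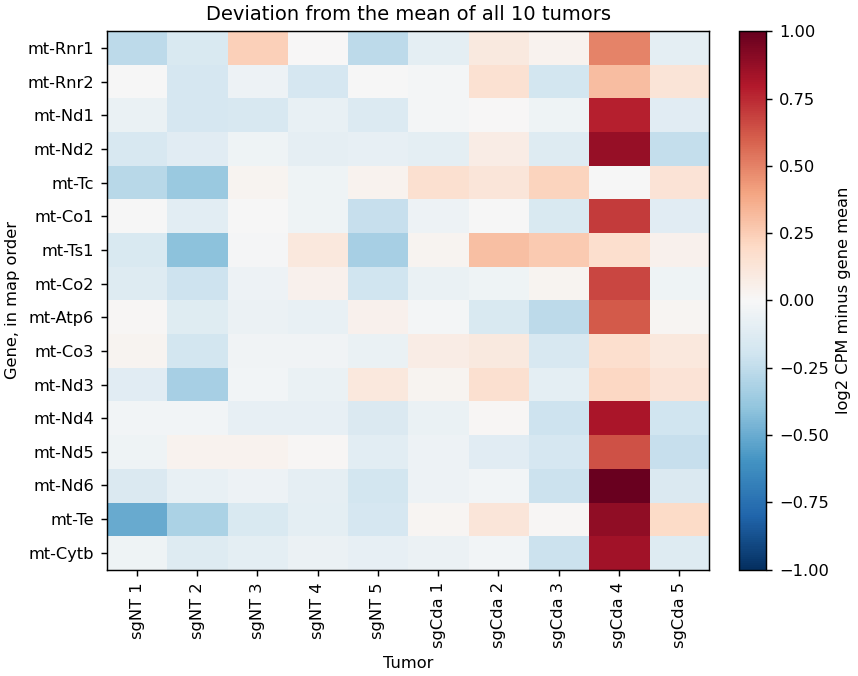
Log2 CPM minus the mean over all 10 tumors for the 16 members with at least 1000 counts in every tumor, genes in map order and tumors in columns. The column of sgCda replicate 4 is dark red for most mRNAs and pale for mt-Co3, mt-Nd3, mt-Ts1 and mt-Tc.

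Across the 10 tumors, log2 CPM of mt-Cytb and mt-Nd6 had a Pearson correlation of 0.99, and without sgCda replicate 4 of 0.59. For mt-Co3 the closest member was mt-Rnr2, with 0.89 and, without that tumor, 0.86, followed by mt-Nd3 with 0.81 and 0.75. The pair with the lowest value was mt-Nd5 and mt-Tc, with −0.23 and −0.63. These values are descriptions over tumors whose genes share a library and its depth.

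The nuclear genes that serve the mitochondrial genome were next examined in lists, none with a gene past the adjusted threshold of edgeR (0.00% of all genes tested). In mitochondrial DNA transcription and maintenance, 14 of 19 tested genes had log2 fold changes above 0, with a median of 0.044. The smallest p values were those of Mterf1b (log2 fold change 0.56, SE 0.24) and Mterf1a (0.35, SE 0.19; 0.40 and 0.21 without sgCda replicate 4), paralogs of a transcription termination factor whose reads may not be told apart. In mitochondrial RNA processing and stability, 16 of 26 were above 0, with a median of 0.0091, and the leading genes were Nsun4 (0.22, SE 0.13; 0.12 without that tumor), an rRNA methyltransferase, and Angel2 (0.10, SE 0.062).

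Cytidine deaminase acts on pyrimidine nucleosides, and genes supplying nucleotides to mitochondria were therefore listed. Of 10 tested, 6 were above 0, with a median of 0.022. Cmpk2, a mitochondrial pyrimidine nucleotide kinase, had 83.9 ± 26.7 CPM in the sgNT group and 65.98 ± 8.77 CPM in the sgCda group (n = 5 each, SD; log2 fold change −0.35, SE 0.19, edgeR unadjusted p = 0.0938), and Slc25a36, a pyrimidine nucleotide carrier, had a log2 fold change of 0.12 (SE 0.10), or 0.018 without sgCda replicate 4. Regulators of biogenesis had 5 of 8 above 0 (median 0.012), led by Ppargc1b, a transcriptional coactivator (0.25, SE 0.19), and Gabpa, a transcription factor (−0.053, SE 0.060). Stress response genes had 7 of 10 above 0 (median 0.017), led by the transcription factor Ddit3 (0.22, SE 0.21) and the matrix protease Clpp (0.073, SE 0.072; 0.044 without sgCda replicate 4).

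Proteins of the mitochondrial ribosome had 43 of 76 above 0 (median 0.0097), led by Mrpl32 (0.095, SE 0.053) and Mrps10 (0.096, SE 0.057). Nuclear-encoded subunits of the respiratory chain had 64 of 82 above 0, against 52.9% of all genes tested, with a median of 0.045, against 0.22 for the mitochondrially encoded genes. The leading genes were the complex I subunit Ndufa5 (0.23, SE 0.10, edgeR unadjusted p = 0.0435) and Cox6a2 (1.45, SE 0.85), a form of a complex IV subunit found in striated muscle. Without sgCda replicate 4, Ndufa5 was at 0.14 (edgeR unadjusted p = 0.0851), 80 of the 82 respiratory chain subunits were above 0 (median 0.087), and 66 of the 76 ribosomal proteins (median 0.050), against 52.1% of all genes tested (median 0.0057). The median of the mitochondrially encoded genes was then 0.076, below that of the nuclear-encoded subunits. In the same fit the medians of the other lists were 0.017 for transcription and maintenance, 0.011 for RNA processing, 0.015 for nucleotide supply, 0.035 for biogenesis and 0.036 for the stress response. The genes of a list are not independent of each other, and no list was tested as a set. Skeletal muscle markers varied widely in both groups. Their summed level was 1.86 to 483 CPM in the sgNT group and 1.90 to 1927 CPM in the sgCda group, all 8 had log2 fold changes above 0, and 24.4 CPM was found in sgCda replicate 4, the sixth highest tumor. In that tumor erythroid markers summed to 4.28 CPM, the lowest of the 10 tumors (others 18.8 to 92.6 CPM), and leukocyte (925 CPM) and endothelial markers (57.9 CPM) ranked 9 of 10. Fibroblast (3384 CPM) and cancer epithelial markers (608 CPM) ranked 8 of 10 there, adipocyte markers (228 CPM) 4 and keratinocyte markers (5.52 CPM) 2. Adipocyte markers summed to 88.6 to 262 CPM in the sgNT group and 79.9 to 970 CPM in the sgCda group. The part of these cell types in the mitochondrial values was not tested. Epithelial keratins of the cancer cells were present in all tumors, with Krt8 at 352 to 644 CPM in sgCda and 376 to 590 CPM in sgNT tumors. Of the 6 epithelial markers listed, 3 had log2 fold changes above 0 and 3 below. The 1 with an unadjusted p under 0.05 by edgeR, Epcam, was at 0.910 to 1.25 CPM in the sgNT group and 1.01 to 3.42 CPM in the sgCda group.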

How the data were processed

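RNA of 10 tumors was analysed, 5 per group. The authors aligned 50-base reads to GRCm38/mm10 with TopHat and Bowtie and deposited raw counts per Ensembl gene from HTSeq (version 07.2 in the submitters' processing notes); the counting mode, strand setting and annotation release are not given in the sources used here. The 5 summary lines of HTSeq were set aside. Members and gene lists were chosen with earlier results of these data known. Nothing in the labels ties tumors to separate mice or batches, so p-values measure the spread between these samples.

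Genes were filtered with filterByExpr (minimum count 10, minimum total 15), scaled by TMM and compared by the quasi-likelihood test of edgeR 4.0.16 in R 4.3.3, two-sided, without covariates, with Benjamini-Hochberg adjustment over all 15299 genes tested. CPM per tumor use TMM-scaled totals, and log2 CPM a prior count of 2. Depth was 28051907 to 39484964 counts per tumor, and the floor is 3 counts. DESeq2 1.42.0 and limma 3.58.1 served as alternatives. The method was also run on simulated counts, drawn independently for each gene and without a tumor like sgCda replicate 4. That run does not bear on such a tumor or on members that share precursors.

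Positions, strands and sequences came from GENCODE transcripts of GRCm38. Shared windows are exact 50-base matches on either strand to other annotated transcripts. Unannotated nuclear copies were not searched, since no genome sequence was used.

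Named were all members (each mRNA and rRNA by tumor, the tRNAs by range, and the 3 tRNAs with most counts), the 2 genes of smallest unadjusted p per list, the 5 most counted nuclear copies, and Cda. mt-Tn and mt-Ty were added after their values were seen, as were Gm10222 and the markers named with values.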

Additional observations from a re-analysis of the deposited data

Results flagged for a closer look

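In 60 groups of 5 values, 11 values were distant from the others by Dixon's criterion, where 3 are expected at 1 in 20. The groups are not independent, since members share libraries. Of these, 10 were those of sgCda replicate 4. Its mitochondrial share was 5.82% of assigned counts, against 3.48% to 3.81% in the other 4 sgCda tumors.

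In log2 CPM, this tumor had 12.49 for mt-Nd1 (others 11.60 to 11.71), 11.42 for mt-Nd2 (10.31 to 10.62), 12.69 for mt-Nd4 (11.67 to 11.89), 11.72 for mt-Nd5 (10.85 to 11.03) and 10.71 for mt-Nd6 (9.52 to 9.70). For mt-Co1 it had 13.63 (12.78 to 12.93), for mt-Co2 11.93 (11.20 to 11.30) and for mt-Cytb 12.72 (11.66 to 11.85). For mt-Te it had 6.90 (6.02 to 6.20). mt-Co3, mt-Nd3 and both rRNAs were not among the distant values. The remaining one was mt-Ta in sgNT replicate 4, at −2.01, against −1.32 to −1.19 in the other sgNT tumors, a gene with 100 counts over all tumors.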

How the results depend on the processing

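No member passed an adjusted p under 0.05 in any of 18 alternatives (8 of processing and 10 that each left out a tumor), and the smallest adjusted p of a member was 0.819. Of 25 tested members, 18 kept their sign wherever they were tested. Over the fits that left out a tumor, the log2 fold change ran from −0.21 to 0.028 for mt-Atp8, −0.059 to 0.29 for mt-Tm, −0.0016 to 0.25 for mt-Co1, −0.060 to 0.18 for mt-Atp6, −0.038 to 0.27 for mt-Nd4, −0.12 to 0.13 for mt-Nd5 and −0.020 to 0.30 for mt-Cytb. Those of mt-Atp8 were above 0 without sgCda replicate 3 or 5, and the others were below 0 only without sgCda replicate 4. The members at an unadjusted p under 0.05 numbered 4 with all tumors and 2 (without sgNT replicate 1) to 6 when a tumor was left out. All genes at that level numbered 382, 280 to 747 when a tumor was left out (747 without sgCda replicate 3), and 830 where 1 count in any tumor sufficed for testing. The cause was not tested. The difference in mitochondrial share, 0.525 percentage points, was 0.0927 without sgCda replicate 4 and up to 0.676 otherwise.

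Same-numbered tumors deviated together with r from −0.43 to 0.34, so no pairing was seen across all replicate numbers. The 2 tumors of replicate 5 were each other's closest partners (r = 0.34), and this check cannot exclude a pairing. With the replicate block 0 genes passed the adjusted threshold, 325 genes and 4 members had an unadjusted p under 0.05, and no call changed. Depth limits the 12 members with 0 to 10 counts per tumor.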
